A study of Sus scrofa with 24 samples.

Results

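Olive oil was compared with coconut oil in the longissimus dorsi muscle of barrows, which are castrated male pigs, across every non-control probe set of a porcine expression array. The comparison used 6 of the 24 pigs of the series, 3 barrows fed olive oil (pigs 17, 18 and 22) and 3 fed coconut oil (pigs 15, 20 and 23), chosen by the fat and sex in the labels. All pigs were Landrace × Large White × Duroc crosses of about 71 kg and 130 days of age at allotment, and each oil made up 3% of the feed. The other arrays, from barrows fed soybean oil or beef tallow and from gilts (young females) fed each of the 4 fats, entered the fit as further groups of 3. The labels describe pens of 3 pigs without giving the pen of a sampled pig, so pigs were treated as independent. The p-values of the fit measure only the spread between pigs within its groups.

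Olive oil is rich in oleic acid, a monounsaturated fatty acid. Coconut oil is rich in lauric acid and other saturated fatty acids of medium chain length. Longissimus dorsi is a back muscle made mostly of fast fibres. It also holds fibroblasts, vessels, fat cells, nerve and macrophages, all of which add RNA to a bulk extract, and in such an extract fewer cells of a type and less RNA per cell cannot be told apart.

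Of 12 markers of skeletal muscle fibres 8 were measured, all with signals above the 40th percentile of the array. Their summed signal was 249590 to 308560 in the olive oil pigs and 263480 to 338700 in the coconut oil pigs, which overlapped, and all 8 had small negative differences of olive minus coconut oil with a median of -0.09 on the log2 scale. The 6 arrays resembled each other closely, with correlations of 0.926 to 0.938 between all pairs across probe sets. The trimmed mean signal was 500.1 to 500.2 on every array, and array medians were 142 to 153 with olive oil and 138 to 148 with coconut oil. RNA integrity was read from GAPDH, whose 3′ over 5′ signal was 1.14 to 1.16 with olive oil and 1.08 to 1.13 with coconut oil. These ranges did not overlap, although the difference was 0.05 on the log2 scale (two-sided exact permutation p = 0.1, the smallest that 3 against 3 pigs allow). The actin ratio lay the other way and overlapped, at 1.89 to 2.40 with olive oil and 1.84 to 2.79 with coconut oil (log2 difference -0.13, two-sided exact permutation p = 0.6). The part of these ratios in the results was not tested.

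No probe set passed the test for a difference between the oils. In limma's moderated test, 0 of 23999 probe sets (0%) had a Benjamini-Hochberg adjusted p under 0.05, and the smallest adjusted p was 0.769. At an unadjusted p under 0.05 there were 1153 probe sets (4.8%), where 5% is the share that a test gives when nothing differs, with 656 (2.73%) higher and 497 (2.07%) lower with olive oil. The p-values were spread almost evenly, with 1129 to 1294 probe sets in each of the equal bins. Leaving out pig 22 gave 1 call and leaving out pig 23 gave 2, all on probe sets without a gene symbol and with mean signals of 36.2 to 50.6. The 4 probe sets of smallest p in the full comparison were likewise without a symbol and dim.

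The size of difference that could be seen depended on the signal. Among the 14399 probe sets with a mean signal at or above 94.1, the 40th percentile and hereafter the level, the median standard error was 0.26 on the log2 scale. For 10926 of them (75.9%) the 95% interval of the difference lay within 2-fold in either direction. Below the level the median standard error was 0.79, and 295 of 9600 intervals (3.07%) lay within 2-fold. A 2-fold difference between the oils was thus outside the interval for most genes of moderate or high signal and could not be judged for most dim ones. The plot of all probe sets shows the wide scatter below the level.

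**Figure D1:**
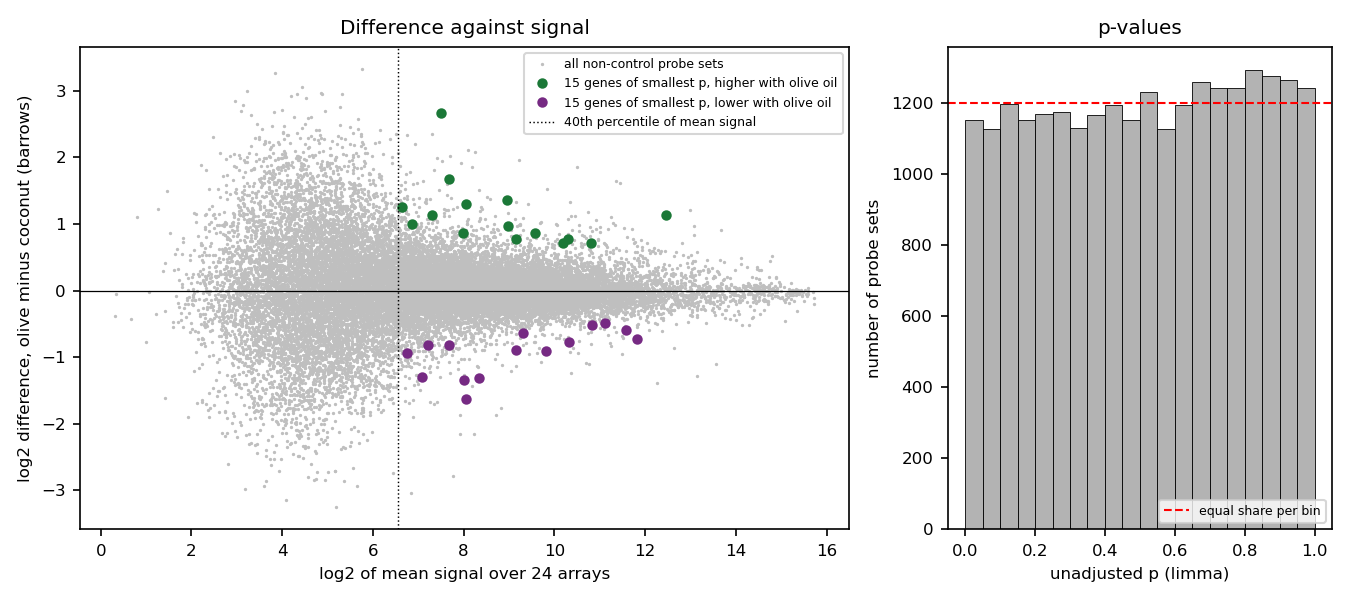
Left, the log2 difference of olive minus coconut oil in barrows (vertical axis) against the log2 mean signal over 24 arrays (horizontal axis) for each of 23999 probe sets, with the 15 named genes of smallest p in each direction in green and purple and the level of 94.1 as a dotted line. Right, the number of probe sets per bin of unadjusted limma p, where every bar lies between 1129 and 1294, near the dashed line of equal shares.

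The genes described next had the smallest p in each direction among named genes at or above the level. None passed the adjusted threshold, so their values are given as measurements. Signals are listed in the order of pigs 17, 18 and 22 for olive oil and 15, 20 and 23 for coconut oil, and differences are olive minus coconut on the log2(signal + 1) scale with their standard error (n = 3 per group). In all 15 genes on the higher side the olive oil pigs lay above the coconut oil pigs. Over all named genes, taken with 1 probe set each, 479 of 6765 (7.08%) had olive oil pigs wholly above and 286 (4.23%) wholly below, and over all probe sets these shares were 6.32% and 5.16%. Genes of smallest p have separate groups by the way they were chosen, so nothing is read from that count. Limma's adjusted p was 0.895 to 0.957 for the 15.

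CTSC, the lysosomal protease cathepsin C that activates serine proteases of immune cells, had the smallest p of any named gene. Its signals were 1414, 1961 and 1832 with olive oil and 1011, 1218 and 939 with coconut oil. The highest coconut oil pig stayed under the lowest olive oil pig, and the difference was 0.71 ± 0.16 (95% interval 0.37 to 1.05). All 4 probe sets of CTSC had positive differences, from 0.06 to 0.71. TGFBR3, the co-receptor betaglycan of the TGF-beta family, read 348, 323 and 257 with olive oil and 172, 82.9 and 134 with coconut oil. Its difference was 1.30 ± 0.31, with 1 coconut oil pig below the level. KLF10, a transcription factor induced by TGF-beta, was among the brightest of these genes at 14894, 8619 and 8821 with olive oil and 4566, 3007 and 7818 with coconut oil. Its difference was 1.13 ± 0.34, and the highest coconut oil pig came close to the lowest olive oil pig.

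TIMP3, a matrix-bound inhibitor of metalloproteinases, read 742, 731 and 999 with olive oil and 513, 357 and 493 with coconut oil, a difference of 0.86 ± 0.23. Its other probe set above the level differed by 0.71, and a dim one by -0.77. TINAGL1, a secreted matrix glycoprotein, read 1224, 1319 and 1185 with olive oil and 794, 686 and 693 with coconut oil. The pigs of each oil lay close together, and the difference was 0.78 ± 0.24. ENPP1, an ectoenzyme that makes pyrophosphate, read 1213, 1164 and 1172 with olive oil and 849, 725 and 613 with coconut oil. The 3 olive oil pigs were nearly equal, and the difference was 0.71 ± 0.22. ST3GAL4, a Golgi sialyltransferase, had the largest difference of the 15, 2.66 ± 0.75, from signals of 194, 122 and 111 with olive oil and 11.9, 58.1 and 12.8 with coconut oil. All 3 coconut oil pigs were below the level there, so the size of that difference is poorly set.

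The other 8 genes on the higher side had differences between 0.77 and 1.67. KIAA1551 read 283, 348 and 259 with olive oil and 118, 119 and 54.8 with coconut oil, and all 6 of its probe sets had positive differences, from 0.30 to 1.67. KHNYN, a partner of the antiviral protein ZAP, differed by 0.86 ± 0.24, but 1 of its 3 probe sets, just below the level, differed by -0.60. SLC25A36, a mitochondrial carrier of pyrimidine nucleotides, read 768, 476 and 699 with olive oil and 276, 364 and 339 with coconut oil and differed by 0.97 ± 0.30. SLA-6, a non-classical class I histocompatibility gene, read 671, 495 and 493 with olive oil and 86.2, 485 and 228 with coconut oil. Coconut oil pig 20 nearly reached the olive oil pigs there, and the difference was 1.36 ± 0.43, or 0.71 without coconut oil pig 15. Probe sets above the level also disagreed in sign for C17H20orf27 and BRF2. C17H20orf27 differed by 0.77 ± 0.21 on the chosen probe set and by -0.18 and -0.14 on the others. BRF2, a subunit of an RNA polymerase III initiation factor, differed by 1.00 ± 0.31 against -0.34. A dim BRF2 probe set, with a mean signal of 58.5, was at -1.42 ± 0.86. ELMO1, an engulfment and Rac activation factor, and CCDC50 lay near the level, at 1.26 and 1.13.

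On the lower side, the olive oil pigs lay below the coconut oil pigs in 14 of 15 genes, all but ABCG2, an efflux transporter. IVD, isovaleryl-CoA dehydrogenase of leucine breakdown, read 50.01, 189 and 155 with olive oil and 359.7, 244 and 280.1 with coconut oil. The difference was -1.35 ± 0.32, and all 4 probe sets of IVD were negative. Olive oil pig 17 alone was below the level, and without it the difference was -0.76. SLC38A10, a member of an amino acid transporter family, read 34.8, 134 and 96.2 with olive oil and 302, 252 and 179 with coconut oil and differed by -1.62 ± 0.42, or -1.06 without olive oil pig 17. ABCF1, a translation initiation factor of the ABC family, had tight groups at 613, 675 and 634 with olive oil and 1214, 1281 and 1102 with coconut oil. Its difference was -0.90 ± 0.24. Limma's adjusted p was 0.895 to 1 for the 15.

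MAP4, a microtubule-associated protein, read 1522, 1673 and 1704 with olive oil and 2082, 2749 and 2242 with coconut oil, a difference of -0.52 ± 0.15, and its 3 probe sets were all negative. DST, the cytoskeletal linker dystonin, read 3079, 3134 and 3004 with olive oil and 5342, 4246 and 5821 with coconut oil. The olive oil pigs were almost identical, and the difference was -0.73 ± 0.22, with a dim probe set of DST at 1.48 in the other direction. ARHGEF6, an exchange factor for Rac and Cdc42, read 2168, 2280.1 and 1686 with olive oil and 2776, 3153 and 2622 with coconut oil and differed by -0.49 ± 0.16. Both of its probe sets were negative.

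Of the genes of translation, signalling and metabolism on this side, EIF4EBP2, a repressor of translation initiation, read 2794, 2464 and 2242 with olive oil and 3409, 4187 and 3655 with coconut oil. Its difference was -0.59 ± 0.20, and 4 of its 5 probe sets were negative. PLA2G7, which inactivates platelet-activating factor, read 562, 969 and 717 with olive oil and 1169, 1584 and 1051 with coconut oil and differed by -0.77 ± 0.24. GRK3, a kinase of G protein-coupled receptors, differed by -0.64 ± 0.22. OXNAD1 differed by -0.89 ± 0.29. STX10, a SNARE protein of Golgi traffic, read 339, 90.5 and 245 with olive oil and 476, 531 and 462 with coconut oil. Its difference was -1.31 ± 0.37, or -0.76 without olive oil pig 18, and its other probe set was at 0.31 with the olive oil pigs wholly above. FDXR, the mitochondrial ferredoxin reductase, differed by -0.82 ± 0.28 with its other probe sets at -0.07 and 0.27. ABCG2, SLC5A10 (a sugar transporter) and LOC100519643 were close to the level, at -1.29, -0.94 and -0.82, and a dim probe set of LOC100519643 was at 0.60. The brighter probe set of ABCG2, with a mean signal of 487, was at -0.16 ± 0.30 with overlap.

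**Figure D2:**
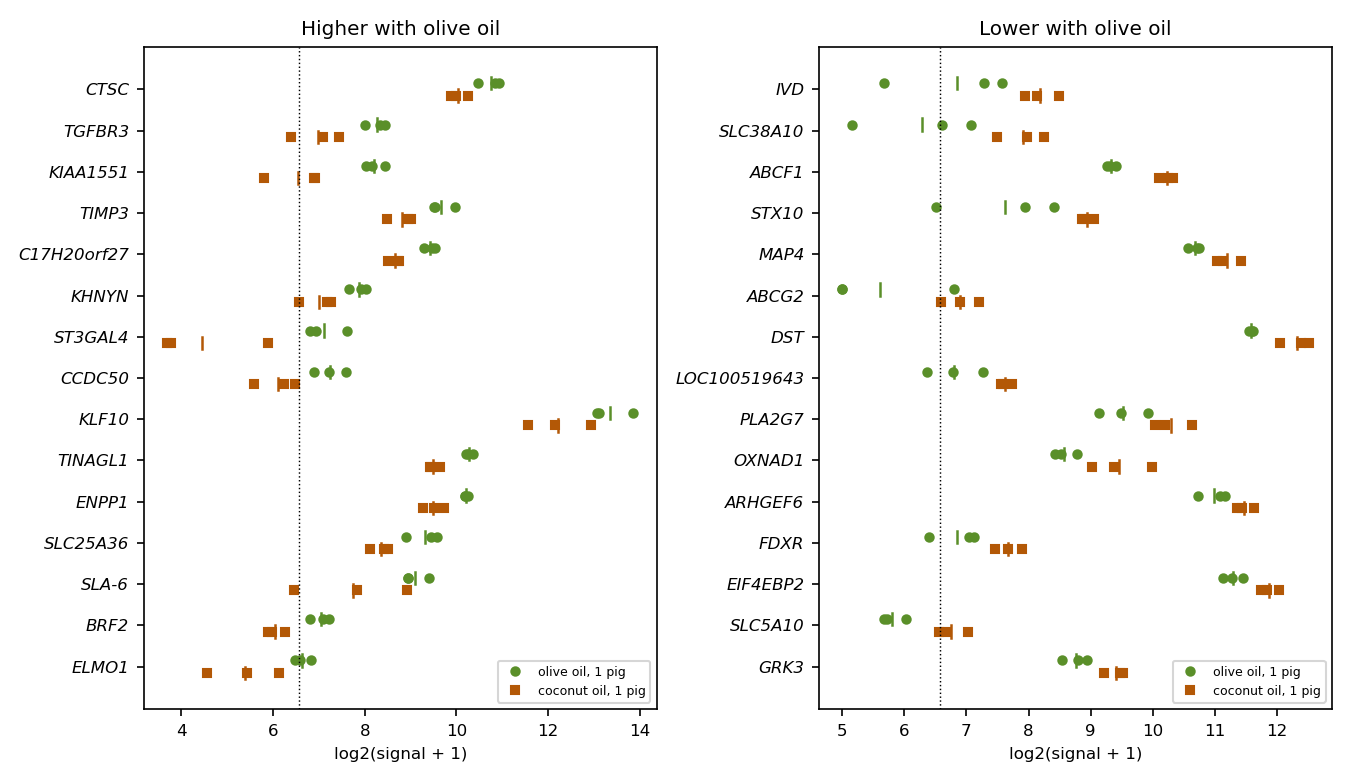
The log2(signal + 1) of each pig (horizontal axis) for the 15 genes of smallest p in each direction, with olive oil as green circles, coconut oil as orange squares, group means as short lines and the level of 94.1 as a dotted line. The groups are apart in 15 of 15 genes on the left and in 14 of 15 on the right, and 15 of the 30 genes have at least 1 pig below the level.

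Gene lists are counted with 1 probe set per gene, the brightest, and other probe sets are given where they differ. The genes that handle fat are of interest here because the diets differed in fatty acids. SCD, the desaturase that makes oleic acid from stearic acid, read 5464, 953 and 2668 with olive oil and 286, 286 and 5596 with coconut oil. Coconut oil pig 23 was the highest of the 6 and the other two coconut oil pigs were the lowest, so the groups overlapped and the difference was 1.64 ± 1.07. FASN, fatty acid synthase, showed the same arrangement at 1636, 913 and 1031 with olive oil and 313, 261 and 1829.8 with coconut oil, a difference of 1.12 ± 0.78. Its 3 dimmer probe sets differed by 2.12, 0.21 and 1.01, all with overlap, and the first had an unadjusted p under 0.05. Of 18 measured genes of lipogenesis and triglyceride synthesis, 13 had positive differences with a median of 0.14. The median of all named genes was 0.02, and 52.9% of them were positive. On the brightest probe sets no gene of this list reached an unadjusted p under 0.05. SCD5, a second desaturase, differed by 0.93 ± 0.46 and AGPAT2, an acyltransferase of phosphatidic acid synthesis, by -0.28 ± 0.18.

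Fat cell markers were mostly positive, in 10 of 14 genes with a median of 0.32, and on these probe sets none had an unadjusted p under 0.05. ADIPOQ, the adipocyte hormone adiponectin, read 1347, 909 and 1277 with olive oil and 746, 324 and 1221 with coconut oil and differed by 0.80 ± 0.77. PPARG, the nuclear receptor of fat cell formation, read 189, 188 and 218 with olive oil and 181, 128 and 156 with coconut oil. PPARG differed by 0.37 ± 0.54. It was the one gene of the list whose groups did not overlap on the brightest probe set. Over all named genes 7.08% had olive oil pigs wholly above, so nothing is read from that count. The retinol carrier RBP4 differed by 1.41 ± 0.79, the glucose transporter SLC2A4 by 0.50 ± 0.34, FABP4 by 0.33 ± 0.36 and leptin (LEP) by 0.34 ± 0.37, with a dim LEP probe set at -1.91. Summed over 5 defining fat cell markers, the signal was 6534 to 9354 with olive oil and 6074 to 6851 with coconut oil, which overlapped.

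Fatty acid oxidation genes lay the other way. Of 23 measured, 4 were positive and the median was -0.16, the lowest of the 31 lists, with 1 gene at an unadjusted p under 0.05 on the lower side, where 1.4% of all named genes were. That gene was ACADL, the long-chain acyl-CoA dehydrogenase, at 2565, 3349 and 3368 with olive oil and 4563, 5191 and 3212 with coconut oil. Coconut oil pig 23 lay within the olive oil range, and the difference was -0.46 ± 0.21. ETFDH, which passes electrons from fatty acid oxidation to the respiratory chain, differed by -0.41 ± 0.21. ACAA2, a thiolase, differed by -0.49 ± 0.28. CPT1B, the muscle carnitine palmitoyltransferase, differed by -0.21 ± 0.36. CRAT, the carnitine acetyltransferase, was the only member whose olive oil pigs lay wholly below, with a difference of -0.29. Over all named genes the share wholly below was 4.23%, so nothing is read from that count. CRAT was named after its values were seen.

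Among 25 genes of fatty acid uptake and fuel choice, 12 were positive with a median of -0.07. Olive oil pigs lay wholly above in 4 genes, and 3 had an unadjusted p under 0.05 on the higher side. Over all named genes these shares were 7.08% and 2.54%. FABP5, a fatty acid binding protein, read 11927, 15683 and 11644 with olive oil and 9004, 9244 and 10181 with coconut oil, a difference of 0.45 ± 0.22. ACSL4, the acyl-CoA synthetase that prefers arachidonic acid, read 849.7, 925 and 972 with olive oil and 637, 772 and 561 with coconut oil and differed by 0.49 ± 0.22. MGLL, monoglyceride lipase, read 2196, 2106 and 2075 with olive oil and 1493, 1605 and 1878 with coconut oil and differed by 0.36 ± 0.17. In each of these genes every olive oil pig exceeded every coconut oil pig. LPL, lipoprotein lipase, read 6475, 6652 and 5068 with olive oil and 3759, 5202 and 4744 with coconut oil and its groups overlapped at 0.41 ± 0.28. Its second probe set differed by 0.65 ± 0.31 with the olive oil pigs wholly above and an unadjusted p under 0.05. The fuel switch genes PDK4, PPARGC1A and UCP3 differed by -0.07 ± 0.28, -0.07 ± 0.59 and 0.02 ± 0.48. The second UCP3 probe set, of similar signal, was at -0.68 ± 0.53.

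Cholesterol synthesis genes were positive in 9 of 14, with a median of 0.19. MSMO1, a sterol C4 methyl oxidase, read 401, 385 and 399 with olive oil and 198, 238 and 259 with coconut oil. The olive oil pigs were close together and the coconut oil pigs were lower and more spread, and the difference was 0.78 ± 0.32. SC5D, a sterol desaturase, also had separate groups, at 378, 412 and 261 with olive oil and 187, 225 and 233 with coconut oil and a difference of 0.68 ± 0.33. NSDHL, a sterol dehydrogenase, differed by 0.34 ± 0.29.

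Matrix genes lay mostly above 0. Of 35 measured fibroblast and matrix genes, 32 had positive differences with a median of 0.22. Olive oil pigs lay wholly above in 9 genes and wholly below in 0, beside 7.08% and 4.23% of all named genes. On the higher side 2 had an unadjusted p under 0.05, as did 2.54% of all named genes. MFAP5, a microfibril glycoprotein, read 2064, 2279 and 2980.5 with olive oil and 1534, 908 and 1405 with coconut oil and differed by 0.95 ± 0.37. TIMP2, a metalloproteinase inhibitor, read 1767, 1848 and 1981 with olive oil and 1689, 1381 and 1239 with coconut oil and differed by 0.39 ± 0.21, with a second probe set at 0.14. THY1, FBN1 (fibrillin) and POSTN (periostin) differed by 0.20 ± 0.23, 0.14 ± 0.20 and -0.14 ± 0.50, and their groups overlapped. The other 2 THY1 probe sets, dimmer but above the level, had the olive oil pigs wholly above, at 0.50 ± 0.25 and 1.16 ± 0.61. Of 13 genes of collagen folding and secretion, 9 were positive with a median of 0.08. KDELR2 and KDELR3, retrieval receptors of the endoplasmic reticulum, differed by 0.38 ± 0.25 and 0.44 ± 0.36, with the other KDELR2 probe sets at -0.01 and -0.03. FKBP14, a collagen chaperone, differed by 0.34 ± 0.34, and its other probe sets by 0.83 and 0.22. The summed signal of 7 defining fibroblast markers was 24920 to 34254 with olive oil and 20982 to 24310 with coconut oil and did not overlap. The mean centred log2 value of the 35 fibroblast and matrix genes per pig did overlap. It was -0.12, 0.09 and 0.44 with olive oil and -0.16, -0.09 and -0.16 with coconut oil.

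Vessel genes also lay mostly above 0, with a median of 0.20. Olive oil pigs lay wholly above in 7 of 18 endothelial genes, 15 were positive, and 4 had an unadjusted p under 0.05 on the higher side. Over all named genes these shares were 7.08%, 52.9% and 2.54%. AQP1, the water channel of capillary endothelium, read 4423, 4837 and 4119 with olive oil and 2494, 2394 and 3296 with coconut oil, with no overlap and a difference of 0.72 ± 0.23. S1PR1, the endothelial sphingosine 1-phosphate receptor, read 2000.3, 3034 and 1719.7 with olive oil and 1338, 1165 and 1324 with coconut oil and differed by 0.78 ± 0.27. ENG, the TGF-beta co-receptor endoglin, read 1319, 1172 and 860 with olive oil and 607, 736 and 819 with coconut oil, a difference of 0.62 ± 0.24. TEK, the angiopoietin receptor, named after its values were seen, was the remaining gene at 0.46 ± 0.22. Not all endothelial genes lay this way, since VWF, KDR and CLDN5 were negative at -0.16, -0.24 and -0.29. All of these are among the 7 defining endothelial markers, of which 4 were positive. The summed signal of the 7 was 7199 to 9309 with olive oil and 6349 to 6891 with coconut oil and did not overlap. Bright genes weigh most in such a sum. The mean centred log2 value of the 18 endothelial genes per pig did overlap. It was -0.10, 0.27 and 0.19 with olive oil and -0.20, -0.08 and -0.08 with coconut oil. Of 10 smooth muscle and pericyte genes 9 were positive with a median of 0.19, with RGS5 at 0.24 ± 0.25, CALD1 at 0.20 ± 0.26 and ACTG2 at 0.24 ± 0.33, and their groups overlapped.

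Immune genes were mixed in sign. Of 27 genes of macrophages and other leukocytes, 20 were positive with a median of 0.27, 6 had olive oil pigs wholly above (7.08% of all named genes) and 2 wholly below (4.23%). C1QC, a complement subunit made by macrophages, read 2440.3, 2167 and 2255 with olive oil and 724, 1625 and 1496 with coconut oil and differed by 0.92 ± 0.45. CD14, the lipopolysaccharide co-receptor of macrophages, read 162, 148 and 171 with olive oil and 59.5, 85.3 and 108 with coconut oil, with separate groups and a difference of 0.96 ± 0.43. ITGAM, an integrin of the same cells, went the other way at 8.6, 20.5 and 7.03 with olive oil and 69.3, 57.6 and 45.1 with coconut oil, a difference of -2.28 ± 0.57, with all 6 pigs below the level. Over 8 defining macrophage and leukocyte markers the summed signal was 8237 to 9235 with olive oil and 4940 to 7243 with coconut oil, without overlap. The mean centred log2 value of the 27 genes per pig did overlap. It was 0.16, -0.03 and 0.13 with olive oil and -0.45, 0.03 and 0.15 with coconut oil. The pan-leukocyte marker PTPRC was below the level. The 2 measured Schwann cell markers summed to 760 to 957 with olive oil and 521 to 664 with coconut oil, also apart. These were S100B, whose groups overlapped, and the brightest probe set of MBP (myelin basic protein). Other MBP probe sets overlapped, at 0.02 and -0.17 above the level and 0.61 below it. The mean centred log2 value of the 5 Schwann cell and nerve genes per pig, 2 of them at or above the level, did overlap. It was 0.52, 0.11 and -0.13 with olive oil and 0.70, -1.24 and 0.04 with coconut oil. The part of the fibroblast, endothelial, leukocyte and Schwann cell marker sums in the values of other genes, CTSC among them, was not tested.

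Antigen presentation genes were positive in 13 of 19 with a median of 0.14. SLA-DMB, which loads peptides onto class II molecules, differed by 0.49 ± 0.24 and SLA-DQA1, a class II chain, by 0.36 ± 0.28, and both had separate groups. Interferon response genes were positive in 14 of 21 with a median of 0.09, and in none of them were the groups apart on the brightest probe set. OAS1, an antiviral RNA sensor, read 413, 361 and 394 with olive oil and 263, 8.8 and 432 with coconut oil, where coconut oil pig 20 was by far the lowest and pig 23 the highest of all, so its difference of 1.91 ± 1.12 had a wide error. IRF7, a transcription factor of the interferon response, was below the level in every pig and differed by 1.66 ± 0.68. IFIT2, an interferon-induced antiviral gene, differed by 0.42 ± 0.27 on its brightest probe set. Its other probe sets, also above the level, were at 0.60 ± 0.22 and 0.87 ± 0.33, the latter with the olive oil pigs wholly above, and both had an unadjusted p under 0.05.

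Immediate early genes, which respond within minutes to a stimulus, had a median of 0.53, and 16 of 20 were positive. An unadjusted p under 0.05 was found on the higher side for 4 of them (2.54% of all named genes), and 0 had olive oil pigs wholly above (7.08% of all named genes). EGR1, a zinc finger factor, read 5988, 3440 and 517 with olive oil and 448, 324 and 1540.4 with coconut oil. Olive oil pigs 17 and 18 were high and pig 22 was low, within the coconut oil range, and the difference was 1.86 ± 0.75. ZFP36, an mRNA decay factor, read 6477, 3245 and 1027 with olive oil and 1534, 1228 and 1271 with coconut oil, a difference of 1.06 ± 0.44, and its pig 22 was below all coconut oil pigs. IER2 read 986, 760 and 458 with olive oil and 226, 383 and 513 with coconut oil and differed by 0.98 ± 0.37. JUN, the fourth gene and named after its values were seen, differed by 0.57 ± 0.26. NR4A3, an orphan nuclear receptor, read 12329, 12039 and 5546 with olive oil and 3569, 6062 and 14527 with coconut oil, where coconut oil pig 23 was the highest, and differed by 0.46 ± 0.56. DNAJB1, an HSP40 chaperone, also had pig 22 within the coconut oil range, at 5964, 4079 and 1228 with olive oil and 643, 679 and 2366 with coconut oil, a difference of 1.62 ± 0.61, while the 29 heat shock and chaperone genes had a median of 0.05.

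Per pig, the mean centred log2 value of the immediate early genes was 0.59, 0.59 and -0.31 with olive oil and -0.62, -0.25 and 0.01 with coconut oil. Thus pig 22 stood apart from the other olive oil pigs for these genes. It was the highest of the 6 for the matrix genes, at 0.44 against -0.12 and 0.09 in the other olive oil pigs and -0.16 to -0.09 with coconut oil.

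Among genes of muscle wasting, 17 of 19 were positive with a median of 0.16. CEBPD, a stress-responsive transcription factor, read 4462, 2346 and 3654 with olive oil and 2593, 1302 and 1365 with coconut oil and differed by 1.02 ± 0.39, with coconut oil pig 15 above olive oil pig 18. GADD45B, a growth arrest factor, read 1622, 354 and 274 with olive oil and 254, 196 and 460 with coconut oil. Its groups overlapped, and the difference was 0.92 ± 0.50, or 0.13 without olive oil pig 17. Another GADD45B probe set above the level was at 1.19 ± 0.44, also with overlap. FBXO31, a ubiquitin ligase subunit, lay the other way with separate groups at 2066, 1212 and 2035 with olive oil and 2446, 2239 and 2388 with coconut oil and a difference of -0.45 ± 0.29. The growth axis was positive in 10 of 16 with a median of 0.07. IGFBP6, a binding protein with preference for IGF-II, read 1604, 1709.6 and 1999 with olive oil and 952, 847 and 938 with coconut oil, a difference of 0.95 ± 0.36 with no overlap. IGF1 differed by 0.23 ± 0.28. IRS1, the insulin receptor substrate, was below the level in all 6 pigs and differed by 1.87 ± 0.73, and ACVR2B, an activin receptor, was also dim at 1.03 ± 0.59.

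Fibre type and energy genes had list medians close to 0. Slow fibre genes had a median of -0.11 over 12 genes and fast fibre genes -0.04 over 10, and no member of either list had an unadjusted p under 0.05. MYH7, the slow myosin heavy chain, differed by -0.15 ± 0.25, MYL3 by -0.15 ± 0.29 and TPM3 by 0.16 ± 0.22, with another TPM3 probe set at -0.34. The fast fibre calcium pump ATP2A1 differed by -0.16 ± 0.22, MYH2 by -0.19 ± 0.47 and TNNT3 by -0.07 ± 0.23. The 55 measured genes of oxidative phosphorylation had a median of 0.00, with 26 positive, and NDUFC2 and NDUFV1, subunits of complex I, at -0.23 ± 0.19 and -0.32 ± 0.27. ATP5I, an ATP synthase subunit, differed by -0.62 ± 0.44 on its brightest probe set. A dim one, with a mean signal of 29.3, was at 1.61 ± 0.77, also with overlap. Of 24 genes of the tricarboxylic acid cycle 7 were positive, with a median of -0.07, and citrate synthase (CS), fumarase (FH) and IDH3A were at -0.26 ± 0.21, -0.22 ± 0.18 and -0.24 ± 0.25. Glycolysis and glycogen genes had a median of -0.06 over 22 genes, with FBP2, the muscle fructose bisphosphatase, at -0.60 ± 0.42 and LDHB at -0.29 ± 0.24.

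Satellite cell and regeneration genes had a median of 0.02 over 9 genes. MYF6, a myogenic factor of mature fibres, read 9462, 7822 and 7209 with olive oil and 6664, 3565 and 6849 with coconut oil, and its separate groups differed by 0.57 ± 0.47. CALCR, a receptor of quiescent satellite cells, differed by 0.37 ± 0.29 and MEF2A by -0.21 ± 0.19.

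**Figure D3:**
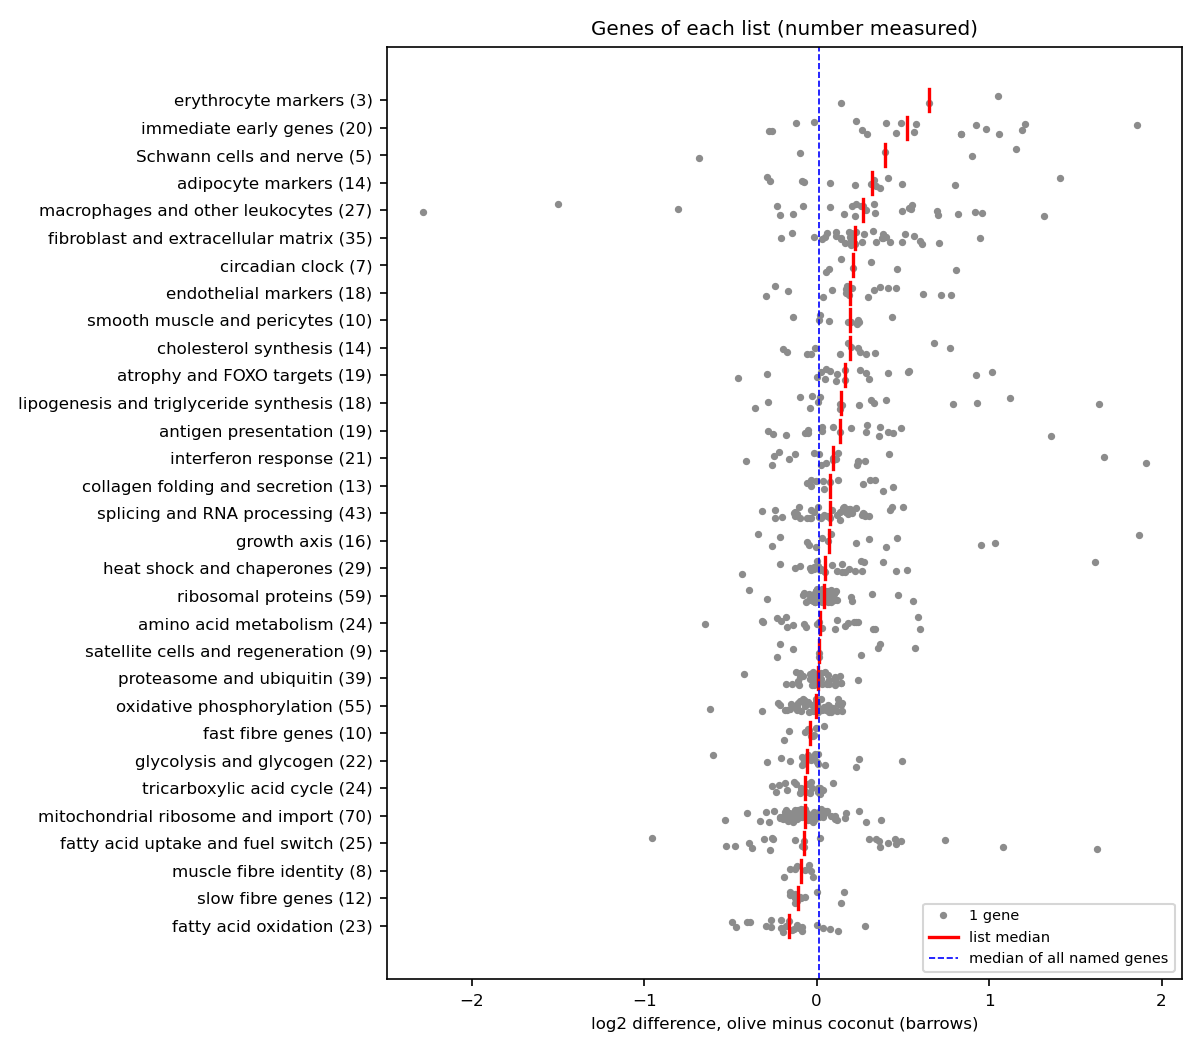
The log2 difference of olive minus coconut oil in barrows (horizontal axis) for each measured gene (grey points) of 31 gene lists (vertical axis, number of genes in brackets), with each list's median in red and the median of all named genes, 0.02, as a dashed line. Medians run from -0.16 for fatty acid oxidation to 0.65 for the 3 erythrocyte markers, and 0 genes of any list passed the adjusted threshold.

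The same oils in gilts gave 0 calls as well, with 2121 probe sets (8.84%) at an unadjusted p under 0.05. Whether the difference between the oils itself differed between barrows and gilts was tested by the interaction in limma. There 0 of 23999 probe sets passed, the smallest adjusted p was 0.336 and 1310 (5.46%) had an unadjusted p under 0.05. Of the 15 leading genes on the higher side in barrows 11 were positive in gilts, and of the 15 on the lower side 8 were negative in gilts. CTSC differed by -0.05 ± 0.16 in gilts and IVD by -0.05 ± 0.32. Matrix genes had a median of 0.60 in gilts against 0.22 in barrows, and fat cell markers 1.06 against 0.32. Of the 14 fat cell markers 9 were positive in gilts and 10 in barrows. Their mean centred log2 value per gilt overlapped, at 0.70, -0.78 and 1.27 with olive oil and -0.40, -0.43 and -0.36 with coconut oil. For the matrix genes that value did not overlap in gilts. THY1 differed by 0.93 ± 0.23 in gilts and FBN1 by 0.83 ± 0.20.

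RNF13, a ubiquitin ligase of endosomes, had the smallest interaction p. Its barrow signals were 107, 667 and 252 with olive oil and 541, 674 and 615 with coconut oil, a difference of -1.21 ± 0.47, against 2.34 ± 0.47 in gilts. The interaction was -3.55 ± 0.67, with limma's adjusted p at 0.336. Another probe set of RNF13 differed by 0.16 in barrows. The interaction passed the threshold when pig 18, the brightest of the olive oil barrows for RNF13, was left out (-4.22, adjusted p = 0.00861), as did 1 probe set without a symbol when pig 23 was left out. SLC38A10 was -1.62 ± 0.42 in barrows and 1.30 ± 0.42 in gilts, PPFIA3 (a synaptic scaffold protein) -0.84 ± 0.44 and 1.66 ± 0.44. CARD19 lay in the opposite arrangement, at 0.65 ± 0.22 in barrows and -0.69 ± 0.22 in gilts. TMED10, a cargo receptor of early secretion, read 1565, 1578 and 1529 with olive oil and 1099, 1094 and 1299 with coconut oil, and differed by 0.42 ± 0.15 in barrows and -0.39 ± 0.15 in gilts, while its brighter probe set was at 0.14 in barrows. TOX4 differed by 0.28 ± 0.17 and -0.63 ± 0.17.

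**Figure D4:**
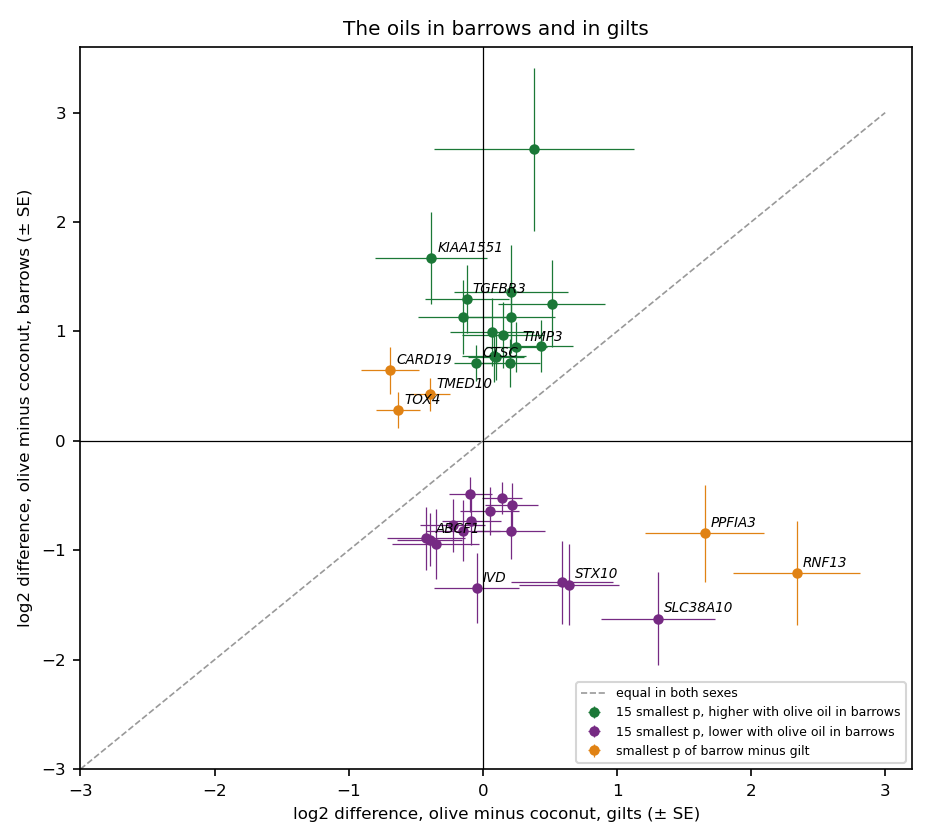
The log2 difference of olive minus coconut oil in gilts (horizontal axis) and in barrows (vertical axis), each with its standard error, for the leading genes in green and purple and for further genes of smallest interaction p in orange. RNF13 and SLC38A10 lie at the lower right, negative in barrows and positive in gilts, and most leading genes lie near 0 on the gilt axis.

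Barrows fed soybean oil or beef tallow give further levels to set beside those of the oils. For 14 of the 15 leading genes on the higher side, the coconut oil mean was the lowest of the 4 fats, and for 7 the olive oil mean was the highest. For 10 of the 15 on the lower side the coconut oil mean was the highest, and for 12 the olive oil mean was the lowest. These levels are a description, since the genes were chosen for the difference between the oils. The mean log2 level of CTSC was 10.75 ± 0.25 with olive oil, 10.04 ± 0.19 with coconut oil, 10.73 ± 0.13 with soybean oil and 10.78 ± 0.07 with beef tallow (SD, n = 3). Coconut oil pigs were thus low for CTSC while the other groups lay together. MAP4 was 10.67 ± 0.09 with olive oil, 11.19 ± 0.21 with coconut oil, 10.56 ± 0.05 with soybean oil and 10.36 ± 0.10 with beef tallow, where coconut oil was high. In contrast, IVD was 6.84 ± 1.02 with olive oil, 8.19 ± 0.28 with coconut oil, 7.89 ± 0.17 with soybean oil and 7.99 ± 0.15 with beef tallow, and there the olive oil group was low and widely spread. EGR1 was 11.10 ± 1.85 with olive oil, 9.25 ± 1.19 with coconut oil, 9.26 ± 0.84 with soybean oil and 9.19 ± 1.03 with beef tallow, with olive oil high and also the most variable.

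AQP1 and S1PR1 of the vessel list also had their lowest mean with coconut oil. AQP1 was 12.12 ± 0.12 with olive oil, 11.40 ± 0.25 with coconut oil, 12.12 ± 0.16 with soybean oil and 12.09 ± 0.42 with beef tallow. S1PR1 was 11.09 ± 0.42 with olive oil, 10.31 ± 0.11 with coconut oil, 11.00 ± 0.37 with soybean oil and 10.82 ± 0.28 with beef tallow. SCD was 11.23 ± 1.27 with olive oil, 9.59 ± 2.47 with coconut oil, 10.52 ± 2.42 with soybean oil and 12.84 ± 1.59 with beef tallow, and no order of the fats stood clear of its spread.

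**Figure D5:**
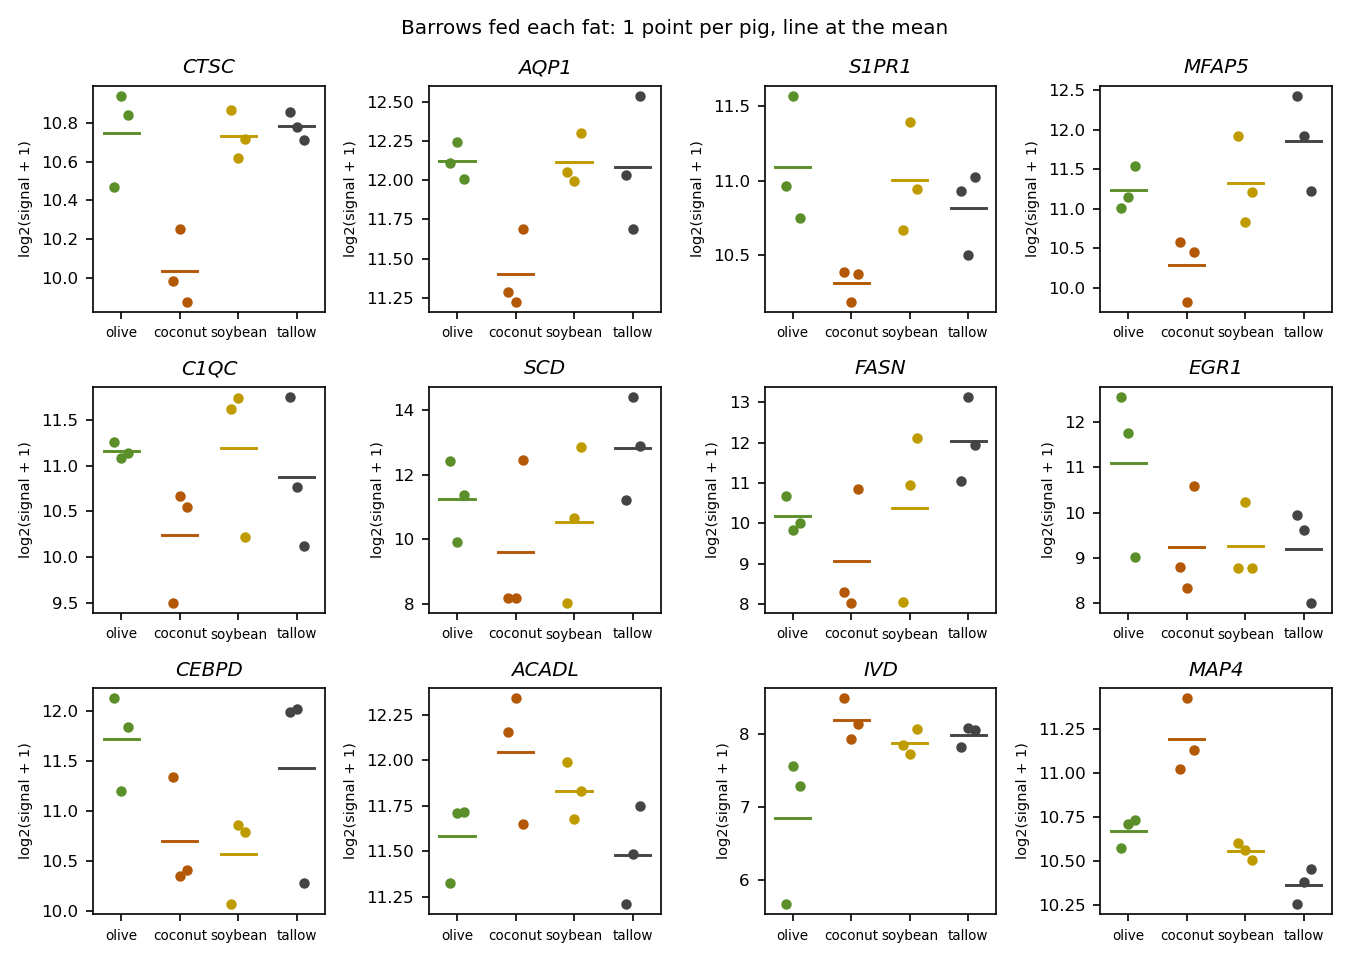
The log2(signal + 1) of each of 3 barrows per fat (points, vertical axis) with the group mean (line), for 12 genes and the 4 fats (horizontal axis). For CTSC and AQP1 the coconut oil means of 10.04 and 11.40 are the lowest, for MAP4 the coconut oil mean of 11.19 is the highest, and for IVD the olive oil mean of 6.84 is the lowest.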

How the data were processed

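Total RNA from muscle was hybridised to a 1-colour array, 1 per pig. The deposited values are probe set signals on a linear intensity scale. The summarisation method, scaling and detection calls are not given in the sources used here, and the values themselves show a common mean after trimming 2% at each end. Signals were turned into log2(signal + 1); the pseudocount shrinks differences of dim probe sets. Of 24123 probe sets, 124 controls were left out. A single gene symbol from the array annotation was held by 10069, several by 198 and none by 13732, and 9961 were found in RefSeq for Sscrofa11.1.

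Differences were fitted with limma 3.58.1 in R 4.3.3 (lmFit, then eBayes with trend) on 8 group means over 24 arrays, two-sided, with Benjamini-Hochberg adjustment over 23999 probe sets, and checked on simulated data. The number of arrays limits the precision.

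The comparison and the 31 gene lists were chosen with earlier results of these data known. Named genes were the 15 of smallest p per direction (1 symbol, mean at or above the 40th percentile), 18 chosen genes, the 3 of smallest p per list (each gene's brightest probe set) and the 6 of smallest interaction p. Other members were named after their values were seen. Marker sums are given as ranges with no test. Alternatives covered filters, scalings, pseudocount, variance models, subsets of arrays and leaving out each pig.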

Additional observations from a re-analysis of the deposited data

Results flagged for a closer look

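The circadian clock list, 7 genes of the daily timekeeping loop, had a score that lay higher with olive oil in barrows and lower with olive oil in gilts, without overlap in either sex. Its score per pig, the mean centred log2 value of its genes, was 0.39, -0.03 and 0.08 in olive oil barrows and -0.04, -0.38 and -0.03 in coconut oil barrows, a difference of 0.30. The barrow groups were barely apart, at -0.0265 in olive oil pig 18 and -0.0305 in coconut oil pig 23, and 0 of the 7 genes had separate groups or an unadjusted limma p under 0.05 in barrows. In gilts it was -0.23, 0.04 and -0.33 with olive oil and 0.05, 0.11 and 0.36 with coconut oil. The barrow minus gilt value was 0.65. The difference was not tested as a score. Of its genes, BHLHE40 differed by 0.81 ± 0.43 in barrows and -1.18 ± 0.43 in gilts, and RORA by 0.47 ± 0.26 and -0.57 ± 0.26, with adjusted limma interaction p of 0.826 for both. CSNK1D differed by 0.21 in barrows on its brightest probe set, which the score used. Its other probe sets, also above the level, were at -0.11 and -0.21.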

How the results depend on the processing

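The count of probe sets that passed in barrows was 0 under each alternative to the filter, scaling, pseudocount, variance model and choice of arrays. Counts at an unadjusted limma p under 0.05 ran from 261 to 1536, but the number tested also varied. The lowest was of 6765, with 1 probe set per gene, and the highest of 23999, with array weights. Leaving out 1 pig at a time gave 0 to 2 calls for the oils in barrows and 0 to 1 for the interaction. The calls were all on dim probe sets without a gene symbol, 1 without pig 22 (-4.04, adjusted p = 0.0316) and 2 without pig 23 (3.46, adjusted p = 0.00378, and 2.90, adjusted p = 0.0424). For the interaction the calls were RNF13 without pig 18 (-4.22, adjusted p = 0.00861) and the first of these probe sets of pig 23 (4.15, adjusted p = 0.0217). The cause was not tested. No paired analysis was possible because the replicate numbers are running numbers that no 2 groups share.

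Of 139 named genes and probe sets, 13 changed sign when 1 pig was left out or under a scaling, all with small differences or wide errors. UCP3 was -0.012 with median centring. When 1 pig was left out, values ran from -0.40 to 0.49 for UCP3, -0.44 to 0.36 for PPARGC1A, -0.47 to 0.012 for CPT1B, -0.26 to 0.13 for PDK4, -0.74 to 0.60 for POSTN, -0.0019 to 1.01 for NR4A3, -0.058 to 0.56 for NSDHL, -0.0022 to 0.30 for TPM3, -0.31 to 0.0029 for ATP2A1, -0.17 to 0.085 for TNNT3, -0.055 to 0.27 for HBB, -0.15 to 1.81 for NEFL and -0.23 to 0.042 for TNNI1. The lowest adjusted p of a named gene for the oils in barrows was, over the alternatives, 0.176. Medians of 14 of the 31 lists changed sign in some setting. Dim probe sets limit the comparison, since their intervals are wide and no detection calls were used.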

Other observations

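Genes of RNA splicing had separate groups in 9 of 43, with olive oil pigs wholly above in 8 (7.08% of all named genes) and below in 1 (4.23%), and a median of 0.08. CLK1, a kinase of splicing factors, read 2342, 2398 and 2539 with olive oil and 1646, 1696 and 1802 with coconut oil, a difference of 0.50 ± 0.20. TRA2B and LUC7L3, splicing regulators, differed by 0.43 and 0.44, also without overlap. Ribosomal protein genes had a median of 0.04 over 59 genes and ran from -0.39 to 0.56. RPL3 had the highest value, at 3685, 4887 and 4195 with olive oil and 2483, 3253 and 2913 with coconut oil, a difference of 0.56 ± 0.27. RPS27A and RPL30 differed by 0.20 and 0.47. Of 70 genes of the mitochondrial ribosome and protein import 21 were positive, with TIMM22 at -0.53, MRPS10 at 0.24 and MRPS26 at -0.33. Proteasome and ubiquitin genes had a median of 0.01 over 39, with CUL4A at -0.42, PSMA7 at 0.24 and PSMC5 at -0.18.

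Amino acid genes had a median of 0.02 over 24. ASL, argininosuccinate lyase of arginine synthesis, read 126, 145 and 201 with olive oil and 236, 246 and 246 with coconut oil, a difference of -0.65 ± 0.29. SAT1, which acetylates polyamines, read 4189, 3894 and 3511 against 2340, 2436 and 2955, a difference of 0.59 ± 0.27. BCAT1, a branched-chain aminotransferase, differed by 0.60. None of these passed the adjusted threshold. Among nerve genes MBP, myelin basic protein, differed by 0.90 ± 0.71 on its brightest probe set and by 0.02, -0.17 and 0.61 on the others, S100B by 0.40 and NEFL by 1.16. The erythrocyte markers ALAS2, AHSP and HBB differed by 0.65, 1.05 and 0.14, and HSP70.2 and DNAJB9, chaperones, by 0.53 and 0.46.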
